A study of Mus musculus with 8 samples.

Results

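LIF, CSF1 and the cytokines that signal through gp130 were followed as 9 genes, Lif, Csf1, Il6, Il11, Il6st, Osmr, Lifr, Stat3 and Socs3, chosen by gene symbol out of 55492 gene rows in the deposited tables. Each symbol stood on 1 row. RNA was sequenced from Yumm5.2, a mouse melanoma line that carries mutant Braf and lacks Trp53, with the strain labelled C57B/6J. The groups were 4-OI for 20 h (4 libraries) and DMSO, the reagent control, for 20 h (4 libraries). The labels call 4-OI a permeable itaconate, by which is usually meant 4-octyl itaconate, and no source used here gives its dose. The series asks how itaconate uptake through SLC13A3 relates to ferroptosis and tumour immunity, and every result comes from 1 cell line without other cells of a tumour.

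Cytokines of the interleukin-6 family share the signalling chain gp130, encoded by Il6st. LIF binds LIFR, oncostatin M binds OSMR, and interleukin-6 and interleukin-11 bind their own alpha chains before each complex engages gp130. Receptor-bound JAK kinases then phosphorylate STAT3, which switches on Socs3, and the SOCS3 protein shuts the receptor down in a feedback loop. CSF1 signals through another receptor, CSF1R, and is the main survival factor of macrophages. Tumour cells commonly release LIF, CSF1 and interleukin-6, all of which act on macrophages around them.

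Total counts ranged from 22962963 to 31361677 per library, and the TMM factors that scale the libraries to each other lay between 0.993 and 1.01. Of 7 melanocytic markers, only Mitf reached 1 CPM (the count relative to the TMM-scaled library total) in any library, at 9.99 ± 0.536 CPM with 4-OI and 6.42 ± 0.415 CPM with DMSO (SD, n = 4 each). Sox10, Pmel, Tyr, Tyrp1, Dct and Mlana stayed under it in all 8. Adgre1, Lyz2 and Fcgr1 were listed at 0 throughout, and the summed level of the 8 macrophage and leukocyte markers was 17.9 to 19.4 CPM with 4-OI and 17.9 to 19.1 CPM with DMSO, nearly all of it Cd14. The 5 endothelial markers summed to less than 1 CPM in every library, and the 5 keratinocyte markers to 2.31 to 2.71 CPM with 4-OI and 1.84 to 2.79 CPM with DMSO. Of 6 fibroblast markers, 4 fell in edgeR's test at an adjusted p under 0.05, where 19.6% of all genes tested fell and 19.3% rose. Pdgfra was slightly higher (0.10 on the log2 scale, edgeR adjusted p = 0.0137), a call lost on log2(TPM + 1) (limma adjusted p = 0.40) and without 4-OI replicate 3 or DMSO replicate 1 (edgeR adjusted p = 0.0580 and 0.0516). Lum was at 0, and the sum of the 6 was 1813 to 1898 CPM with 4-OI against 2603 to 2768 CPM with DMSO, mostly Col1a2. The part of this shift in the results on the cytokine genes was not tested. In RNA from a whole culture, fewer cells expressing a gene and less RNA per cell cannot be told apart.

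Csf1, Socs3, Il6st and Lif were moderately lower with 4-OI, at between 0.75 and 0.872 of the DMSO level. Stat3 was slightly higher, and the receptor genes Lifr and Osmr did not pass the test. Il6 and Il11 were close to the limit of detection in both groups. Of the 7 genes that could be tested with edgeR's quasi-likelihood test, 4 fell and 1 rose at a Benjamini-Hochberg adjusted p under 0.05, where 19.6% of all 13531 genes tested fell, 19.3% rose and 38.8% changed in either direction. In the same 4 genes that fell, every 4-OI library lay below every DMSO library, as 18.0% of the tested genes did. None of the 9 lay wholly above, where 17.4% of genes did; together 35.4% of genes had groups that did not overlap. Of the 5253 genes called, 4588 changed by less than 1.5-fold, as did all 5 here; among the genes that fell, 78.4% changed less than Csf1, 73.4% less than Socs3, 59.5% less than Il6st and 47.5% less than Lif.

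**Figure D1:**
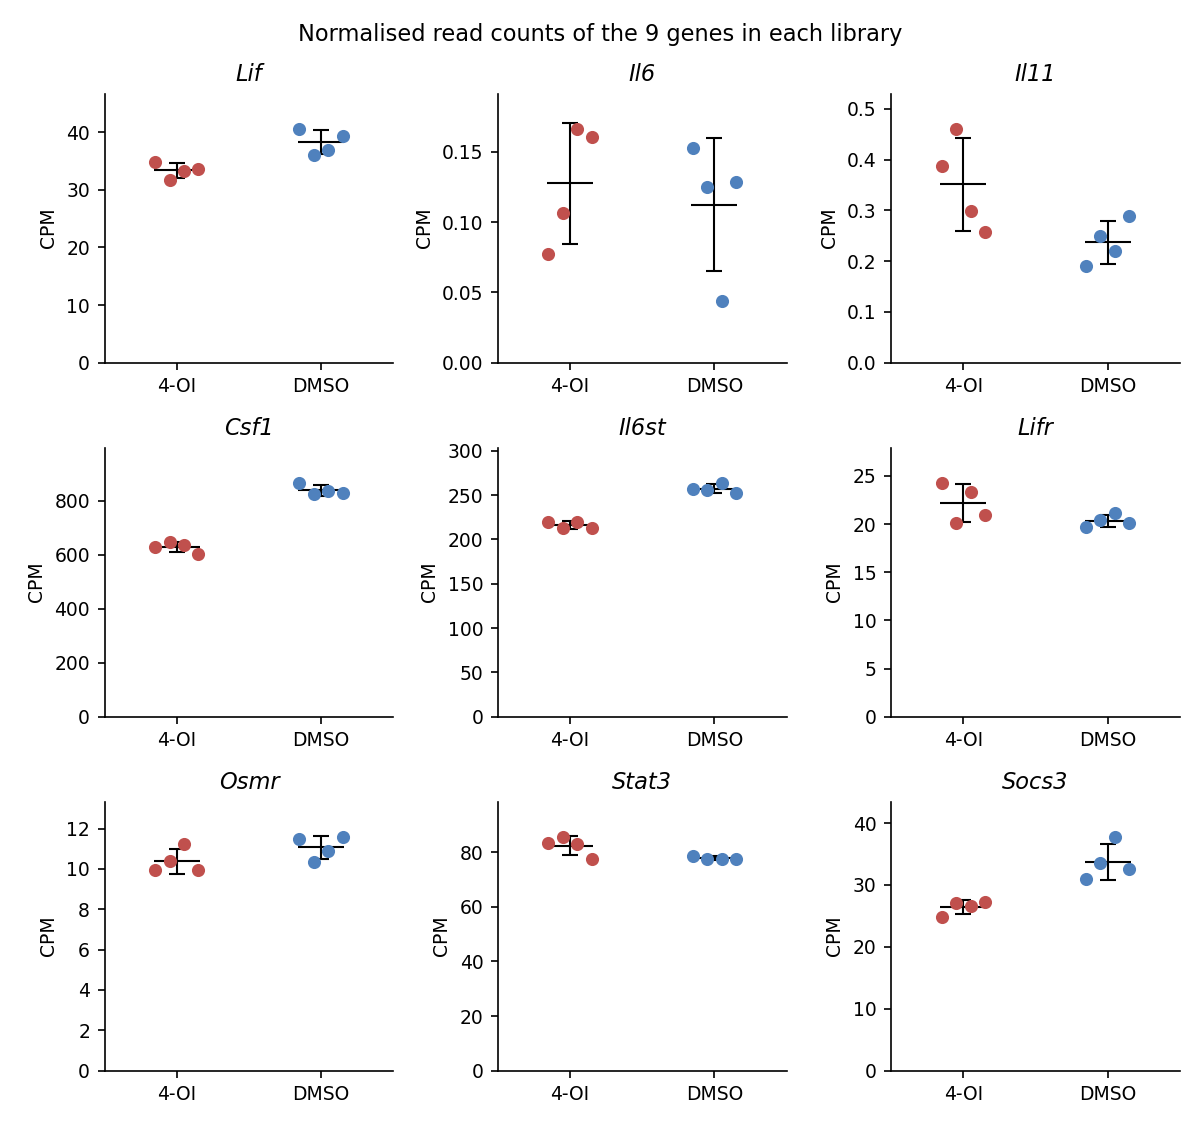
CPM of the 9 genes in each library, 4-OI on the left and DMSO on the right of every panel; points are libraries, the bar is the mean and the whiskers are 1 SD (n = 4 each), and every axis starts at 0. The groups are separate for Lif, Csf1, Il6st and Socs3 and overlap in the other 5 panels.

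Among the ligands, Csf1 was by far the most abundant transcript and showed the clearest fall. Csf1 (chromosome 3, 107741048 to 107760469, minus strand, GRCm38) had 628, 647, 636 and 604 CPM in the 4-OI libraries against 867, 824, 835 and 827 CPM in the DMSO libraries. The highest library with 4-OI thus stayed well under the lowest with DMSO. The change came to -0.41 ± 0.03 (log2, ± standard error; edgeR adjusted p = 1.19e-10), a level 0.75 of that with DMSO. Il34, which encodes the other known ligand of CSF1R, moved the same way, with 17.5 ± 0.631 CPM in 4-OI libraries and 22.2 ± 0.447 CPM in DMSO libraries (SD, n = 4 each) and a change of -0.34 on the log2 scale (edgeR adjusted p = 7.86e-06). The receptor gene Csf1r had counts of 1, 3, 5 and 1 with 4-OI and 9, 2, 0 and 5 with DMSO, so RNA of the receptor was near the floor of the measurement while that of both ligands was not.

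Lif (chromosome 11, 4257557 to 4272514, plus strand), the cytokine that keeps mouse embryonic stem cells undifferentiated and that many tumours secrete, had 34.9, 31.8, 33.3 and 33.6 CPM with 4-OI against 40.6, 36.1, 37.0 and 39.3 CPM with DMSO. The groups did not overlap, but the gap between them was narrow. On the log2 scale this was -0.20 ± 0.04 (± standard error; edgeR adjusted p = 0.00146). On the authors' TPM scale, which divides by transcript length, the groups overlapped, with 17.4, 16.0, 19.8 and 15.1 TPM for 4-OI and 19.9, 18.6, 17.3 and 21.1 TPM for DMSO. The same comparison on log2(TPM + 1) gave -0.17 and was not called (limma adjusted p = 0.201).

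Il6 (chromosome 5, 30013114 to 30019981, plus strand) had counts of 2, 3, 5 and 5 in the 4-OI libraries and 4, 3, 1 and 4 in the DMSO libraries. A limit of 3 counts corresponds to 0.0957 to 0.131 CPM here, so these values sat at the floor of the measurement. A difference was not detectable at this depth (exact permutation p = 0.686, two-sided). Il11 (chromosome 7, 4772373 to 4782859, minus strand), a cytokine tied to fibrosis and wound repair, had counts of 10, 13, 9 and 8 with 4-OI and 5, 6, 5 and 9 with DMSO, which is 0.351 ± 0.0911 CPM with 4-OI and 0.237 ± 0.042 CPM with DMSO (SD, n = 4 each). The groups overlapped, and the two-sided exact permutation p was 0.0571. It was 0.362 after Benjamini-Hochberg adjustment over 19 low genes with any count, from all lists but the cell type markers. The smallest p that 4 against 4 libraries allow is 0.0286. On TPM, Il11 averaged 0.295 with 4-OI and 0.253 with DMSO, and the two-sided exact permutation p was 0.514.

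Promoter windows of the 3 cytokine genes Csf1, Lif and Il6 are shown because the first and the second fell together while Il6, the classical target of NF-kB in this family, stayed at the floor. They are RefSeq windows on GRCm38.p6, read 5′ to 3′ on the gene's strand from 250 bases before the annotated start, with the last bases of the Lif window left out where the annotated gene begins. Capitals mark matches on either strand to the NF-kB consensus, the AP-1 motif TGANTCA, the antioxidant response element core TGACNNNGC or the STAT motif TTCNNNGAA.
Csf1, chr3:107760470-107760719, minus strand: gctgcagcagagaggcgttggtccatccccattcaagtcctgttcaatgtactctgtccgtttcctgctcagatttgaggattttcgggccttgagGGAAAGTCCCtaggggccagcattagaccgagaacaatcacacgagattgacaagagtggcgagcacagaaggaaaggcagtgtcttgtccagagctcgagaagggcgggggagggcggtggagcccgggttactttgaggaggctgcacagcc
Lif, chr11:4257318-4257556, plus strand: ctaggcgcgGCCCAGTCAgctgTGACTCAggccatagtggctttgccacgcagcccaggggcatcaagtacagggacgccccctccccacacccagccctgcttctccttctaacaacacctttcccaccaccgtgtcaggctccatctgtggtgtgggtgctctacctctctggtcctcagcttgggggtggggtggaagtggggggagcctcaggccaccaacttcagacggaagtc
Il6, chr5:30012864-30013113, plus strand: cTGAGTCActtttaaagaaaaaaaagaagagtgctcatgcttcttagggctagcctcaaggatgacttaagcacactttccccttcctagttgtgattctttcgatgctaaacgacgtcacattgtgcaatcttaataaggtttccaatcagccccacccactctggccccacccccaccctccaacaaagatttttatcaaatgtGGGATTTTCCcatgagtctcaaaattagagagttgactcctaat

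Csf1 and Il6 each held 1 NF-kB match, Il6 and Lif each held 1 AP-1 match, and Lif held 1 antioxidant response element core. No 2 of these matches overlapped. Among the other members, a Lifr window held the antioxidant core, an Il11 window an AP-1 match and the Socs3 window a STAT match. The windows of Il6st, Osmr and Stat3 held none of these motifs. Among all 32851 RefSeq windows of this length, 3.9% held an NF-kB match, 6.75% an AP-1 match, 10.2% the antioxidant core and 7.02% a STAT match. These matches describe the letters and do not show binding. Among 12 transcription factors known from the Il6 promoter, 7 fell and 2 rose, with a median log2 fold change of -0.19 against 0.00 over all genes tested, of which 19.6% fell and 19.3% rose. With limma, 5 of the 12 fell on log2(TPM + 1), where 1620 of all 13531 genes tested fell. On log2(TPM + 0.1) 4 of the 12 fell, where 1615 of all genes tested did. By count, 2646 of all genes tested fell. Fosl1, an AP-1 subunit, rose (log2 fold change 0.43), as did Cebpb (0.32), whereas Cebpd (-0.28) and Junb (-0.26) fell. The groups did not overlap in any of these 4, as in 35.4% of all genes tested.

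Between genes, only levels per length compare. In DMSO libraries the order of mean TPM was Csf1 (402), Il6st (59.7), Stat3 (30.6), Socs3 (20.6), Lif (19.2), Lifr (11.1), Osmr (3.86), Il11 (0.253) and Il6 (0.19). Socs3 and Lif did not differ beyond their spread, nor did Il11 and Il6, while the other neighbours were separate. In 4-OI libraries Lif (17.1 TPM) stood above Socs3 (16.2 TPM) in the mean, again with overlapping values, and the rest of the order was the same.

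**Figure D2:**
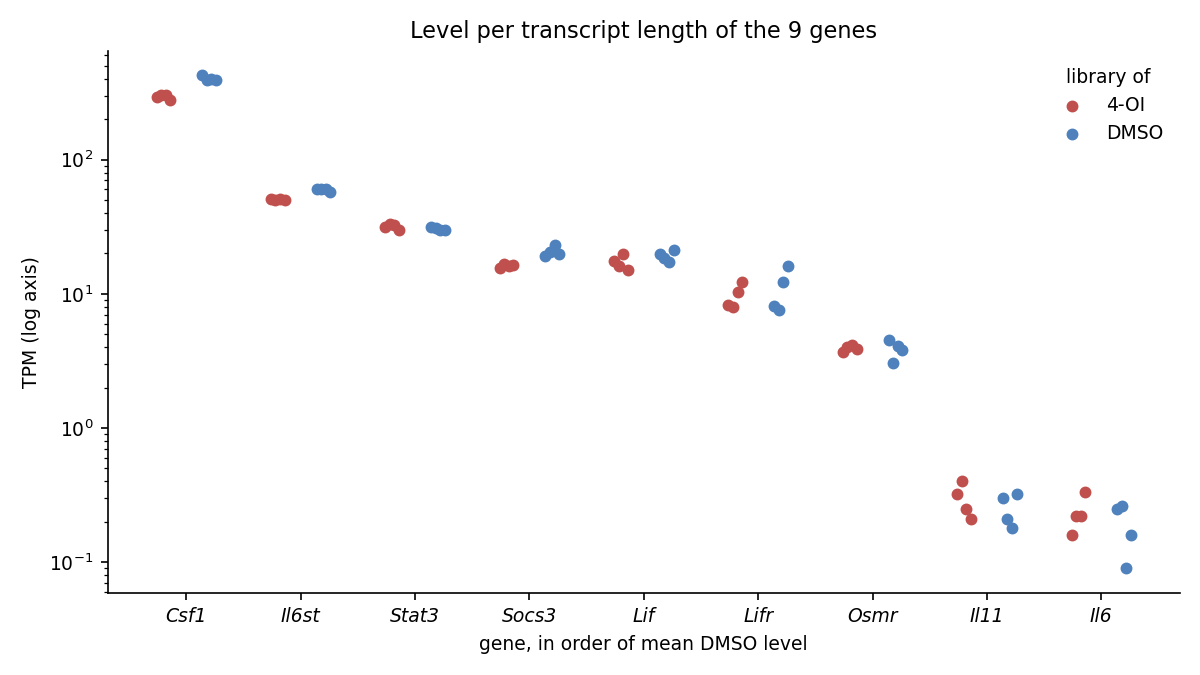
TPM of the 9 genes on a log axis, genes ordered by mean level in DMSO, with the 4 libraries of 4-OI to the left and the 4 of DMSO to the right of each position. Levels span from Csf1, at 294 TPM with 4-OI and 402 TPM with DMSO, to Il6, at 0.233 TPM with 4-OI and 0.19 TPM with DMSO.

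The receptors did not move together. Il6st (chromosome 13, 112464070 to 112510086, plus strand), the gene of gp130, had 219.9, 213, 219.7 and 213 CPM in the 4-OI libraries against 257, 256, 264 and 253 CPM in the DMSO libraries. All 4-OI values lay below all DMSO values without overlap. The log2 change was -0.25 ± 0.02 (± standard error; edgeR adjusted p = 5.81e-08). Il6ra, the alpha chain that binds interleukin-6, fell as well, with 40.3 ± 1.06 CPM in 4-OI libraries and 50.9 ± 1.03 CPM in DMSO libraries (SD, n = 4 each), which is -0.34 on the log2 scale (edgeR adjusted p = 1.54e-07).

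Lifr (chromosome 15, 7090614 to 7197489, plus strand), the specific chain for LIF, had 24.3, 20.1, 23.3 and 20.9 CPM with 4-OI against 19.7, 20.4, 21.1 and 20.1 CPM with DMSO. Replicates 1 and 3 of 4-OI were above all DMSO libraries and the other two were among them. The log2 fold change was 0.13, with a 95% interval of 0.00 to 0.25 (edgeR adjusted p = 0.0951); without 4-OI replicate 2 it was 0.17 and called (edgeR adjusted p = 0.0276), and without 4-OI replicate 4 it was 0.15 and called (0.0490). Osmr (chromosome 15, 6813577 to 6874969, minus strand), the oncostatin M receptor chain, had 9.93, 10.4, 11.2 and 9.94 CPM with 4-OI and 11.5, 10.4, 10.9 and 11.6 CPM with DMSO. These overlapped, with a log2 fold change of -0.10 and a 95% interval of -0.23 to 0.03 (edgeR adjusted p = 0.233). The interval of Osmr holds falls nearly as large as that of Il6st, and also 0, so a change of this gene was not resolved. The interleukin-11 chain Il11ra1 was not called either (-0.07), while Cntfr, Il27ra and Il11ra2 had at most 2 counts in any library.

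Lifr gave different answers by count and by length-corrected level. Its TPM was 8.20, 8.02, 10.3 and 12.2 in the 4-OI libraries and 8.16, 7.60, 12.3 and 16.2 in the DMSO libraries, a spread that its counts do not show. Dividing count by FPKM and by the library total gives an implied mean length for a gene, which is not the annotated transcript length. Among 636 genes with 1 annotated transcript this implied length came to 0.88 of the annotated length in the median. The median shortfall was 301 bases. For Lifr it was 4071, 3473, 3088 and 2342 bases with 4-OI against 3338, 3664, 2322 and 1671 bases with DMSO. That range of 1.28 on the log2 scale was wider than for 99.8% of the 9086 genes with at least 200 counts in every library, whose median range was 0.10. It varied within both groups, which overlapped. GENCODE M21 lists 8 Lifr transcripts of 299 to 9655 bases, and in mouse a short form of the gene is known to encode a soluble receptor; isoform tables were not used here. The log2 fold change of Lifr on log2(TPM + 1) had the opposite sign, -0.14 (limma adjusted p = 0.704).

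Lif and Osmr had less extreme but still wide ranges of implied length, with Lif between 2297 and 3061 bases and Osmr between 3500.2 and 4651 bases over the 8 libraries. A smaller range was found in 93.8% of genes for Lif and 93.6% for Osmr. Il6st and Socs3 were steady, at 5809 to 5923 and 2200 to 2261 bases over all 8 libraries. For Csf1 the implied length was 2954, 2961, 2859 and 2949 bases with 4-OI and 2824, 2871, 2828 and 2858 bases with DMSO, so the lengths of the groups overlapped through 4-OI replicate 3.

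**Figure D3:**
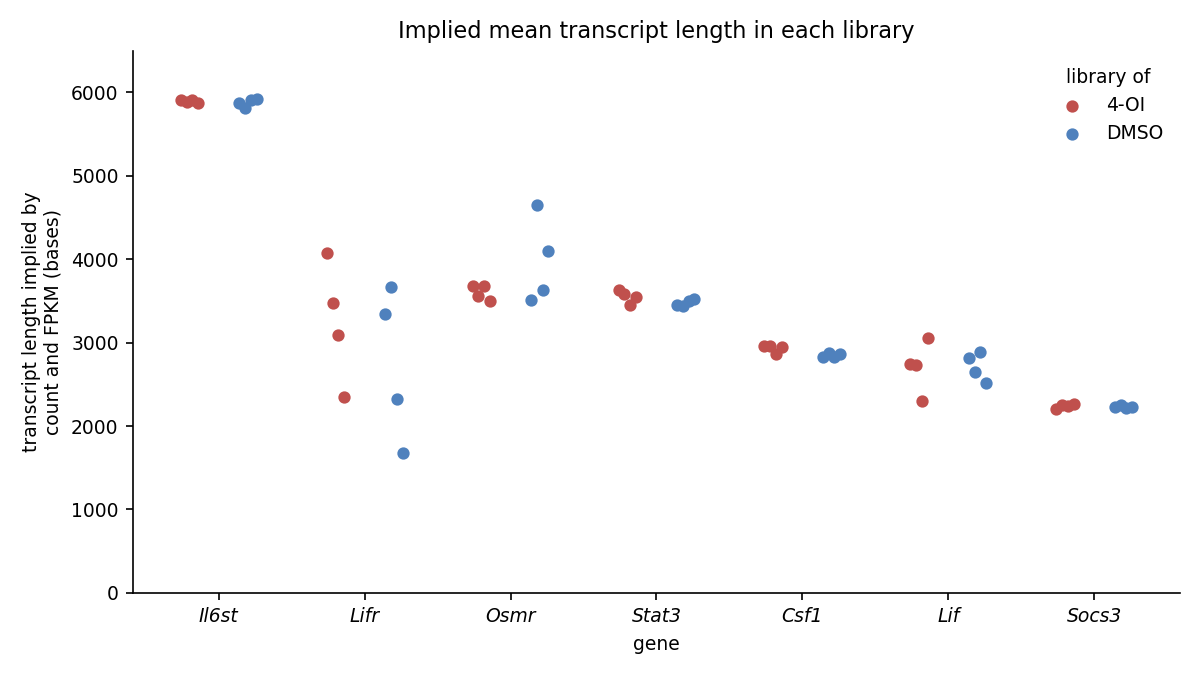
Mean length in bases implied by count and FPKM for the 7 tested genes, with the 4 libraries of 4-OI to the left and the 4 of DMSO to the right of each gene. Implied lengths tend to run below annotated transcript lengths. Lifr runs from 1671 to 4071 bases and Il6st stays between 5809 and 5923 bases.

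Of the signal transducer and its feedback inhibitor, Stat3 rose by a small amount and Socs3 fell. Stat3 (chromosome 11, 100885098 to 100939540, minus strand) had 83.4, 85.8, 83.1 and 77.5 CPM with 4-OI against 78.8, 77.5, 77.6 and 77.5 CPM with DMSO. Replicates 1, 2 and 3 of 4-OI were above all DMSO libraries and replicate 4 was among them. The log2 change was 0.08 ± 0.03 (± standard error; edgeR adjusted p = 0.0463). The call was lost when any library other than 4-OI replicate 4 was left out (edgeR adjusted p = 0.0581 to 0.142), with DESeq2 (adjusted p = 0.0795) and on log2(TPM + 1) (limma adjusted p = 0.348). The gene overlaps Stat5a on the opposite strand, and without a stated strand setting reads of the overlap cannot be told apart; Stat5a itself was not called (0.02).

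Socs3 (chromosome 11, 117966079 to 117970047, minus strand) had 24.8, 27.0, 26.6 and 27.2 CPM in the 4-OI libraries against 30.9, 33.6, 37.8 and 32.5 CPM in the DMSO libraries. All values with 4-OI were lower, and the DMSO libraries were the more widely spread. The log2 change was -0.35 ± 0.05 (± standard error; edgeR adjusted p = 3.59e-05), a level 0.786 of that with DMSO. The RefSeq window of this gene held the only STAT match among the members' windows, and 30 bases around it are shown with the match in capitals; they lie inside the gene as GENCODE annotates it.
Socs3, chr11:117969501-117969530, minus strand: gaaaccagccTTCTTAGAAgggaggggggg

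Other genes of the pathway moved in both directions. Among other cytokines of the family, Clcf1, which encodes a ligand of the CNTF receptor, rose (0.33), and Cntf (0.06) was not called. Clcf1 had 57.2 ± 1.2 CPM in 4-OI libraries and 45.5 ± 1.75 CPM in DMSO libraries (SD, n = 4 each, edgeR adjusted p = 2.48e-07). All its 4-OI libraries lay above, as for 17.4% of all genes tested. Osm had no count in any library, Il27, Ebi3 and Ctf2 had at most 3, and Ctf1 had 5 to 13. Per length Clcf1 was more abundant than Lif, at 47.8 TPM with 4-OI and 38.8 TPM with DMSO.

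Among the kinases, Jak2, a kinase bound to gp130, fell (-0.22 on the log2 scale). It had 49.7 ± 1.55 CPM in 4-OI libraries and 58.0 ± 1.3 CPM in DMSO libraries (SD, n = 4 each). The kinase gene Tyk2 rose (0.21), and Jak1 was not called (-0.05, edgeR adjusted p = 0.102). The groups did not overlap for Jak2 and Tyk2, as for 35.4% of all genes tested. Among 12 other negative regulators, 3 fell, 2 rose and 7 were not called, with a median log2 fold change of -0.04. The share called, 41.7%, was near the 38.8% of all genes tested. Socs1, which inhibits JAK kinases directly, rose by 0.28 (edgeR adjusted p = 0.000588), with 15.6 ± 0.690 CPM with 4-OI and 12.9 ± 0.805 CPM with DMSO (SD, n = 4 each), in the direction opposite to Socs3. Socs2 was also higher (0.25), a call lost without 4-OI replicate 2 or 3 or DMSO replicate 1 (edgeR adjusted p = 0.0525 to 0.0669), with DESeq2 (adjusted p = 0.0628) and on log2(TPM + 1) (limma adjusted p = 0.662). The phosphatase gene Ptpn6 was lower (-0.39).

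**Figure D4:**
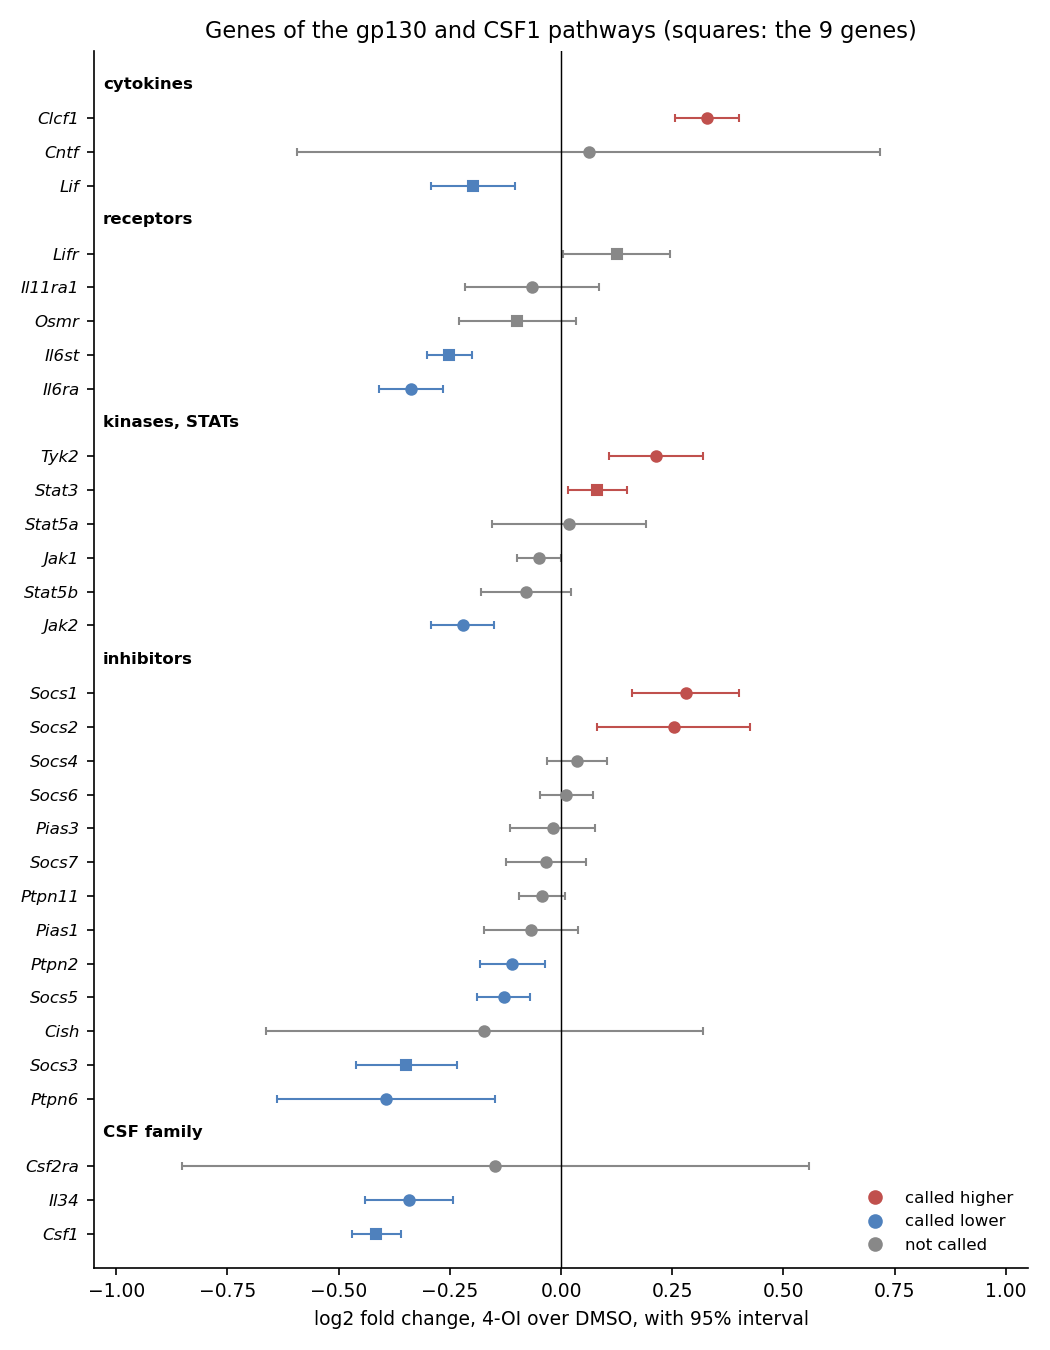
Log2 fold change of 4-OI over DMSO with its 95% interval for tested genes among the cytokines, receptors, kinases, inhibitors and colony-stimulating factors; squares are the 9 genes, circles other genes of the lists, red and blue are called higher and lower, grey is not called. Csf1, Il34, Il6ra, Il6st and Socs3 lie left of 0, and Clcf1, Tyk2 and Socs1 right of it.

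Genes listed as targets of STAT3 fell more often than they rose. Leaving out the members themselves, 10 of 17 tested targets fell, 3 rose and 4 were not called. Their median log2 fold change was -0.20 against 0.00 over all genes tested, of which 19.6% fell and 19.3% rose. The list was chosen with earlier results of these data known, so these counts do not test the pathway. It shares Cebpb, Cebpd and Junb with the transcription factors of the Il6 promoter, so the counts of those lists are not separate. Bcl3, a coactivator of NF-kB dimers, had 5.33 ± 0.249 CPM in 4-OI libraries and 7.88 ± 0.793 CPM in DMSO libraries (SD, n = 4 each), or -0.55 on the log2 scale (edgeR adjusted p = 2.29e-05). Ccnd1, the gene of cyclin D1, had 875 ± 14.8 CPM in 4-OI libraries and 1118 ± 26.5 CPM in DMSO libraries (SD, n = 4 each; log2 fold change -0.35). The 3 that rose were Il4ra (0.49), the interleukin-4 receptor chain, Cebpb (0.32) and Pim1 (0.26), a survival kinase; Pim1 was named after its value had been seen. The other 7 targets, most of them acute-phase genes, had at most 5 counts in any library. Many of these genes have other regulators as well, and the list does not measure STAT3 activity.

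**Figure D5:**
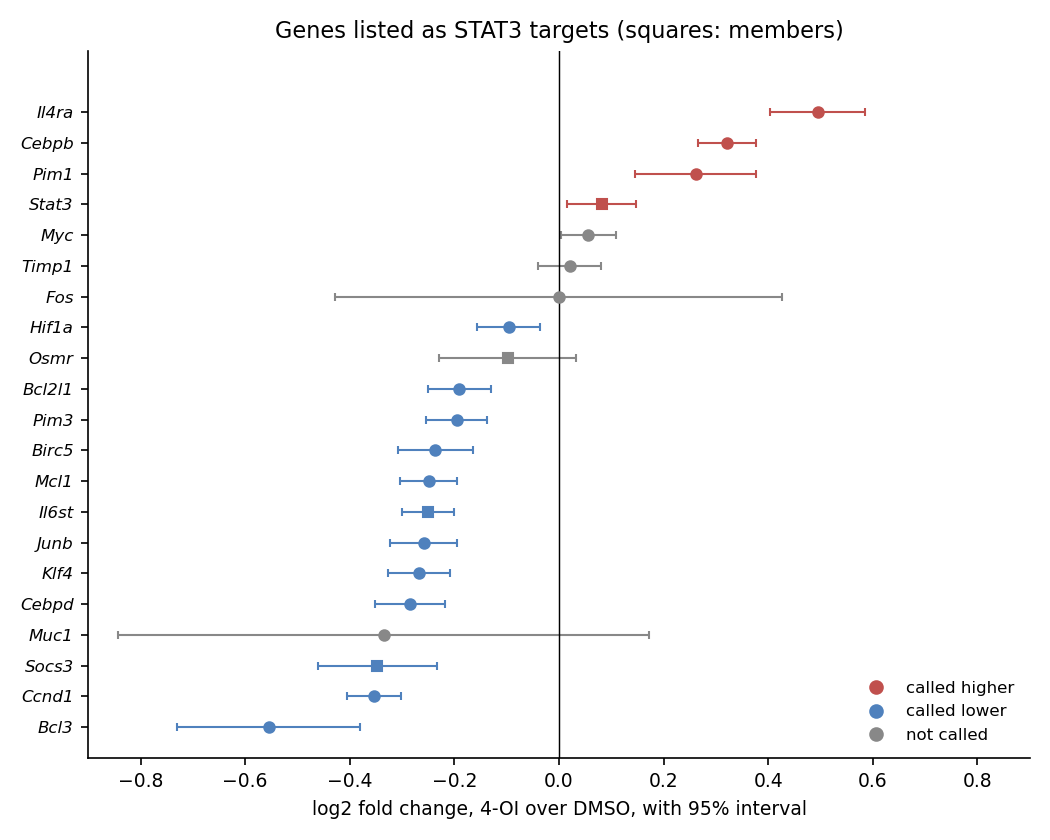
Log2 fold change of 4-OI over DMSO with its 95% interval for the 21 tested genes of the STAT3 target list, ordered by size; squares are members of the 9 genes, red and blue are called higher and lower, grey is not called. Bcl3, at -0.55, is the lowest and Il4ra, at 0.49, the highest.

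Among genes that act on these cytokines after transcription, the counts called for mRNA decay depended on the scale. Those for shedding were the same on both TPM scales. Of 11 regulators of cytokine mRNA decay, 8 fell and 2 rose, with a median log2 fold change of -0.11, where 19.6% of all genes tested fell and 19.3% rose. On log2(TPM + 1) only 2 of the 11 fell, Hnrnpd and Zfp36l1, and 1 rose, Zfp36l2 (limma). On that scale 1620 of all 13531 genes tested fell and 1760 rose, against 2646 and 2607 by count. The number of the 11 that rose by count was also 1 without 4-OI replicate 1 or 4 or DMSO replicate 1 or 4. Zc3h12a, which encodes the nuclease Regnase-1 that cuts Il6 mRNA, fell (-0.27; not called on log2(TPM + 1), limma adjusted p = 0.123), as did Hnrnpd (-0.33) and Zfp36l1 (-0.28), while Zfp36l2 rose by 0.32 on the log2 scale. Of 5 genes of ligand and receptor shedding, the proteases Adam17 (0.15) and Adam10 (0.12) rose, and Timp3, the inhibitor of ADAM17, had 197 ± 3.30 CPM in 4-OI libraries and 319 ± 7.29 CPM in DMSO libraries (SD, n = 4 each; log2 fold change -0.70, edgeR adjusted p = 9.34e-15). Adam17 is known to release soluble interleukin-6 receptor and membrane-bound CSF1 from cells.

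The other colony-stimulating factors were rare. Csf2, the gene of GM-CSF, had counts of 2, 4, 1 and 2 in the 4-OI libraries against 14, 12, 12 and 8 in the DMSO libraries, with every 4-OI library lower. An exact permutation test, two-sided, gave its lower limit of p = 0.0286. Benjamini-Hochberg adjustment over the same 19 low genes as for Il11 gave 0.271. This test was added after the values had been seen. Csf3 had 0 to 4 counts, Csf2rb 0 to 2 and Csf3r none, and Csf2ra (-0.15) was not called.

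By Euclidean distance over the 8 libraries between log2 CPM values taken relative to the DMSO mean, the genes closest to Csf1 among 10065 at 5 CPM or more were Haus7 (distance 0.0717, log2 fold change -0.44), H2bc21 (0.0858, -0.40) and Adam19 (0.0890, -0.43). Those closest to Stat3, the member that rose, were Fads1 (0.0438, log2 fold change 0.08), Gak (0.0516, 0.07) and Ptp4a3 (0.0531, 0.06). Nothing in the labels says that same-group libraries came from separate cultures beyond calling them experiments, so the p-values reflect only how far these libraries differ within a group, and that spread may be technical.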

How the data were processed

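Polyadenylated RNA was sequenced as 150-base paired ends, per the labels' protocols. The deposited expected counts are estimated counts per gene, given as whole numbers. The deposited TPM and FPKM values were scaled by the authors for transcript length and library size. The submitters' processing notes name cutadapt 2.3, FastQC 0.11.8, STAR 2.7.8a, RSEM 1.3.3, MultiQC 1.7 and GRCm38; no source used here names an annotation release or a strand setting. Expected counts were tested with edgeR 4.0.16 in R 4.3.3 (TMM, filterByExpr with a minimum count of 10, quasi-likelihood test, Benjamini-Hochberg adjustment over 13531 genes, no covariates); the common biological coefficient of variation was 3.10%. Genes under the filter were tested by exact permutation of mean CPM over 70 arrangements. DESeq2 1.42.0 and limma 3.58.1 served as alternatives, with other scalings, no filter, a GC and length correction (mgcv 1.9.3), a replicate block and leaving out each library. The edgeR test was also run on simulated counts in which far fewer genes changed than were called in these data. That run does not measure error rates at the share of changes seen here, and its outcome is not reported here. Positions and transcripts come from GENCODE M21, and all 9 genes matched RefSeq promoter windows. Members and gene lists were chosen with earlier results of these data known, so counts over a list describe its genes and are no independent test. Beyond the 9 genes, the text names up to 4 called genes with the largest change per list, untested genes where a list has 5 or fewer, and the 3 nearest patterns. Some genes of the lists are counted but not reported here by name.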

Additional observations from a re-analysis of the deposited data

Results flagged for a closer look

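Among 50 groups of 4 libraries, 1 library stood apart from the other 3, relative to the group's range, in 3 of them. Chance gives about 1 in 20, a share near this. CPM, TPM and implied length of a gene come from the same libraries, so the groups are not independent. The implied transcript length of Csf1 was 2859 bases in 4-OI replicate 3, with a gap to its nearest neighbour of 0.882 of the group's range. The TPM of Il6st was 57.6 in DMSO replicate 4, with a gap of 0.842 of the range. The CPM of Stat3 was 78.8 in DMSO replicate 1, with a gap of 0.909 of the range. The other DMSO libraries had 77.5, 77.6 and 77.5 CPM, so the gap was small against the level.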

How the results depend on the processing

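Csf1, Il6st and Socs3 kept their direction and their call in all alternatives run, between -0.45 and -0.40, -0.25 and -0.23, and -0.35 and -0.33 on the log2 scale outside the fits that left out a library. The number of members that rose was 1, and 0 with DESeq2, the replicate block and both TPM fits, 2 with the GC and length correction, and 0 to 2 when a library was left out. Stat3 was 0.0821 with DESeq2 (adjusted p = 0.0795), 0.0807 with the replicate block (edgeR adjusted p = 0.0521), 0.0568 and 0.0584 on the TPM scales of 1 and 0.1 (limma adjusted p = 0.348 and 0.347), and 0.0628 to 0.111 without single libraries. The labels do not say whether replicate numbers pair the libraries. Same-number correlations were 0.302, -0.0969, 0.153 and -0.0652, and those between different numbers ran from -0.253 to 0.249. These values do not settle whether libraries of the same number shared a batch. The replicate block called 2526 genes higher and 2618 lower. On log2(TPM + 1) and log2(TPM + 0.1), genes that fell numbered 1620 and 1615 against 2646, Lif was -0.17 on both (limma adjusted p = 0.201 and 0.196), Osmr 0.0331 and 0.0431, and Lifr -0.14 and -0.14. With a pseudocount of 0.1, 20 of the 67 tested genes of the pathway lists, members left out, fell, against 31. Over all 13531 genes tested, 1615 fell on that scale, against 2646. Lifr was 0.14 with the GC and length correction (edgeR adjusted p = 0.0418) and 0.0854 to 0.168 without single libraries. The CPM difference of Il6 was -0.00753 to 0.0320 without single libraries, negative without DMSO replicate 3. The cause of these changes was not tested. Without single libraries 2249 to 2522 genes rose and 2369 to 2666 fell, and 4 members fell each time. Lif was then -0.22 to -0.17 and Osmr -0.14 to -0.07. The CPM difference of Il11, 4-OI minus DMSO, was 0.0772 to 0.145 without single libraries. The regulators of cytokine mRNA decay that fell numbered 2 on both TPM scales, against 8, and the transcription factors of Il6 that fell numbered 5 and 4, against 7.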

Other observations

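Icam1, a listed STAT3 target below the filter, had 1 count in all over the 4-OI libraries and 9 over the DMSO libraries, with every 4-OI library lower in CPM. An exact permutation test, two-sided, gave p = 0.0286, which no arrangement of the 8 libraries can go below, and 0.271 after Benjamini-Hochberg adjustment over 19 genes. Icam1 was named after its values had been seen.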
